A study of Arabidopsis thaliana with 8 samples.

Results

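bHLH137 (AT5G50915), bHLH154 (AT2G31730) and UBC20 (AT1G50490) are 3 genes of a list of early DELLA targets attributed to the study of these arrays, and each was read by 1 probe set, a group of short probes against its transcript. They are 3 of the 22746 probe sets on the Affymetrix ATH1 array that are not array controls, and all 3 lay above the signal filter that left 13648 probe sets for testing. The list used here was written from memory of the study's paper, which was not at hand, and could not be checked against it. Because the study is understood to have drawn it up partly from these same samples, the direction of its members here is a description and not independent evidence.

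There were 4 arrays of shoots from seedlings sprayed with 2 µM GA4, a bioactive gibberellin, and 4 arrays of shoots sprayed with water, all cut 1 h after the spray. Plants of both groups carried the ga1-3 mutation in the Ler background, which blocks an early step of gibberellin synthesis, so every array came from a gibberellin-deficient plant, aged 8 days and grown at 22 °C under constant light with 2% sucrose. Replicates are numbered 1 to 4 in each group, and the labels call them biological without saying what a shared number marks. The series was made to list early gibberellin-responsive genes. Wild-type, unsprayed and DELLA-overproducing plants were not analysed here.

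DELLA proteins are nuclear growth repressors. When gibberellin binds its GID1 receptors, the DELLA proteins are marked with ubiquitin and destroyed, so a gene that DELLA proteins switch on would be lower soon after gibberellin is given to a deficient plant. Basic helix-loop-helix (bHLH) proteins form a large family of transcription factors that act as dimers, to which bHLH137 and bHLH154 belong. UBC20 is an E2 ubiquitin-conjugating enzyme, the step between the activating enzyme and the ligase, and with UBC19 it forms the Arabidopsis class related to the animal E2 enzymes that act with the anaphase-promoting complex in cell division.

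In both treatments the arrays fell into a first set (replicates 1 and 2) and a second set (replicates 3 and 4). Over the tested probe sets, log2 signals correlated at 0.923 to 0.955 in the first set, at 0.976 to 0.984 in the second, and at only 0.866 to 0.926 across the sets. The actin control's 3′ over 5′ ratio, a measure of RNA integrity, ran between 2.72 and 6.81 in the first set and between 1.5 and 1.76 in the second. The same ratio of the GAPDH and ubiquitin controls did not separate the sets. Water replicate 2 had 0.929 for GAPDH and 1.3 for ubiquitin, below GA4 replicate 3 of the second set (0.982 and 1.32). The other first-set arrays lay above every second-set array in both of these ratios. With 2 arrays of each treatment per set, the results of the 3 genes are also given within the sets. The root hair genes EXPA7 and EXPA18 and the shoot apex gene CLV3 lay below the signal filter, and 0 of the 5 green leaf markers had a probe set named here.

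All 3 genes had a lower signal in GA4 than in water at each of the 4 replicate numbers, but none of them passed the test over all probe sets. The mean GA4 signal was 69.7% of the water signal for bHLH137, 73.3% for bHLH154 and 92.5% for UBC20. Of all tested probe sets, 10% were lower in GA4 at all 4 numbers, and the members come from a list understood to rest partly on these samples, so their 3 of 3 is a description. With limma and Benjamini-Hochberg adjustment at 0.05, 0 of the 3 members passed, against 0.0147% of probe sets lower and 0% higher in the unpaired fit. In the blocked fit, which compares arrays of the same replicate number, 0 of the 3 again passed, against 0.256% lower and 0.0366% higher. At an unadjusted p under 0.05, bHLH154 alone lay there in the unpaired fit (1.77% of all probe sets, counting those lower in GA4), and bHLH137 and bHLH154 in the blocked fit (6.63%). Shoots were measured whole, so fewer cells expressing a gene and less RNA per cell cannot be told apart.

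bHLH137 was the member with the widest spread between arrays. Its MAS5 signal was 710, 367, 1070 and 1161 units on GA4 replicates 1 to 4, against 887, 716, 1477 and 1458 units on water replicates 1 to 4. The groups overlapped, since GA4 replicates 3 and 4 were brighter than water replicates 1 and 2, and GA4 replicate 2 was the dimmest of all. The mean log2 signal was 9.56 ± 0.76 in GA4 and 10.08 ± 0.52 in water (SD, n = 4 arrays each).

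Set against the water array of its own number, bHLH137 in GA4 was at -0.32, -0.97, -0.46 and -0.33 on the log2 scale for numbers 1 to 4. Number 2 lay apart, and the other 3 were close to each other. The mean difference was -0.52 (unpaired SE 0.38, 95% interval -1.37 to 0.33, limma adjusted p = 1.00). With the replicate block the SE was 0.14 and the interval -0.82 to -0.22, with limma unadjusted p = 0.003 and adjusted p = 0.175. An exact permutation test over the 8 arrays gave p = 0.286 (2-sided). Without GA4 replicate 2 the unpaired mean difference was -0.17, which leaves 1 GA4 array against 2 water arrays in the first set, and with number 2 left out of both groups the blocked value was -0.37.

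The sets differed more in bHLH137 than the treatments did. The first set minus the second was -1.13 on the log2 scale in GA4 and -0.88 in water. GA4 minus water was -0.64 (SE 0.33) in the first set and -0.40 (SE 0.12) in the second, with limma adjusted p of 0.574 and 0.488. The difference between these effects was 0.25 (95% interval -0.61 to 1.11, limma interaction adjusted p = 0.913). The actin 3′ to 5′ ratio was 4.48 on GA4 replicate 2 and 2.72 on water replicate 2, the number at which bHLH137 differed most. It was 6.81 on GA4 replicate 1 and 5.07 on water replicate 1, where bHLH137 differed least (-0.32). Number 4 was almost level with that (-0.33), and there the actin ratio was 1.68 in GA4 and 1.76 in water. The ubiquitin ratio was 2.3 in GA4 and 1.3 in water at number 2, and 2.8 and 2.52 at number 1. For GAPDH it was 1.34 and 0.929 at number 2, and 1.17 and 1.19 at number 1. The part of RNA integrity in the bHLH137 result was not tested.

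bHLH154 was the member whose groups did not overlap. Its MAS5 signal was 652, 646, 537 and 497 units on GA4 replicates 1 to 4, against 760, 741, 821 and 843 units on water replicates 1 to 4. Every GA4 array was dimmer than every water array, as it was for 1.39% of all tested probe sets, and the water arrays lay close together. The mean log2 signal was 9.18 ± 0.19 in GA4 and 9.63 ± 0.09 in water (SD, n = 4 arrays each).

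By replicate number, bHLH154 in GA4 minus water was -0.22, -0.20, -0.61 and -0.76 on the log2 scale. The differences at numbers 3 and 4 were the larger ones, and those at numbers 1 and 2 were close to each other. The mean was -0.45 (unpaired SE 0.16, 95% interval -0.80 to -0.09, limma unadjusted p = 0.0186, adjusted p = 1.00), or -0.75 to -0.15 with the replicate block (SE 0.14, limma adjusted p = 0.259). The exact permutation p was 0.0286 (2-sided), the smallest that 4 arrays against 4 can give and not adjusted for the other probe sets.

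In the second set bHLH154 was at -0.69 (SE 0.14, 95% interval -1.0 to -0.37, limma unadjusted p = 7.0e-04, adjusted p = 0.165), and in the first set at -0.21 (SE 0.23, adjusted p = 0.808). The difference between these effects was -0.48 (95% interval -1.01 to 0.06), which did not pass the limma interaction test (unadjusted p = 0.0749, adjusted p = 0.716). With the replicate number as a block the interval was -0.95 to 0.00 (unadjusted p = 0.0503, limma adjusted p = 0.355), and without the block and without the signal filter the unadjusted p was 0.0487 (adjusted p = 0.752). The first set minus the second was 0.33 on the log2 scale in GA4, while in water it was -0.15. The first-set SE of 0.23 draws partly on the spread of other probe sets. The first-set arrays of bHLH154 lay close together, at log2 signals of 9.35 and 9.33 in GA4 and 9.57 and 9.53 in water. GA4 minus water was below 0 in both sets, and whether the sizes differ was not settled by these tests.

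UBC20 had the smallest difference of the 3. Its MAS5 signal was 617, 811, 543 and 574 units on GA4 replicates 1 to 4, against 705, 844, 613 and 585 units on water replicates 1 to 4. The groups overlapped, and replicate 2 was the brightest array in both treatments. Every first-set array was brighter than every second-set array. The first set minus the second was 0.34 on the log2 scale in GA4 and 0.36 in water, both further from 0 than the mean GA4 minus water. The mean log2 signal was 9.30 ± 0.26 in GA4 and 9.41 ± 0.24 in water (SD, n = 4 arrays each).

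UBC20 in GA4 minus water was -0.19, -0.06, -0.18 and -0.03 on the log2 scale for numbers 1 to 4, all below 0 and all small. The mean was -0.11 (unpaired SE 0.19, 95% interval -0.54 to 0.32, limma adjusted p = 1.00). With the replicate block the interval was -0.37 to 0.14 (SE 0.12, adjusted p = 0.731), which spans 77.3% to 111% of the water level. A missed threshold does not show that UBC20 was untouched by GA4. The exact permutation p was 0.514 (2-sided). The unpaired mean difference was -0.24 without GA4 replicate 2 and -0.01 without water replicate 2, omissions that leave the sets unbalanced. With 1 number left out of both groups the blocked value was between -0.14 and -0.09. UBC20 was at -0.12 in the first set and -0.10 in the second, and the difference of 0.02 had a 95% interval of -0.60 to 0.65.

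**Figure D1:**
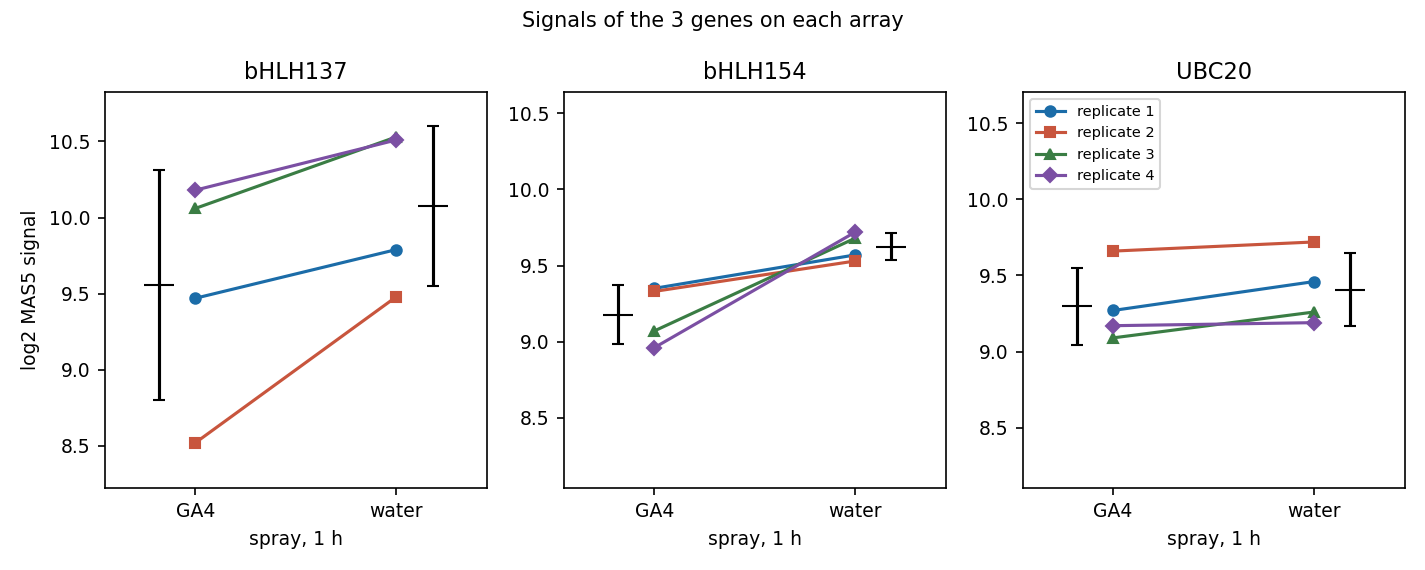
Log2 MAS5 signal (vertical axis, the same span for each gene) of bHLH137, bHLH154 and UBC20 on the 4 GA4 arrays and the 4 water arrays, with lines joining arrays of the same replicate number and black bars giving the mean ± SD of each group. Every line is lower at GA4 than at water, and the groups are separate for bHLH154 alone. bHLH137 is split by replicate set with replicates 3 and 4 on top, and UBC20 with replicates 1 and 2 on top.

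The position of each gene among all probe sets differed accordingly. Of the 13648 tested, 2.95% had a GA4 minus water difference at or below that of bHLH137, 4.31% at or below that of bHLH154 and 29% at or below that of UBC20. The median over all tested probe sets was 0.01, and 48.5% were below 0. In the second set alone 4.54% lay at or below bHLH137 and 1.07% at or below bHLH154, and in the first set alone 6.03% and 27.8%. UBC20 sat inside the bulk of the array's probe sets, with 28.1% at or below it in the second set and 35.8% in the first.

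**Figure D2:**
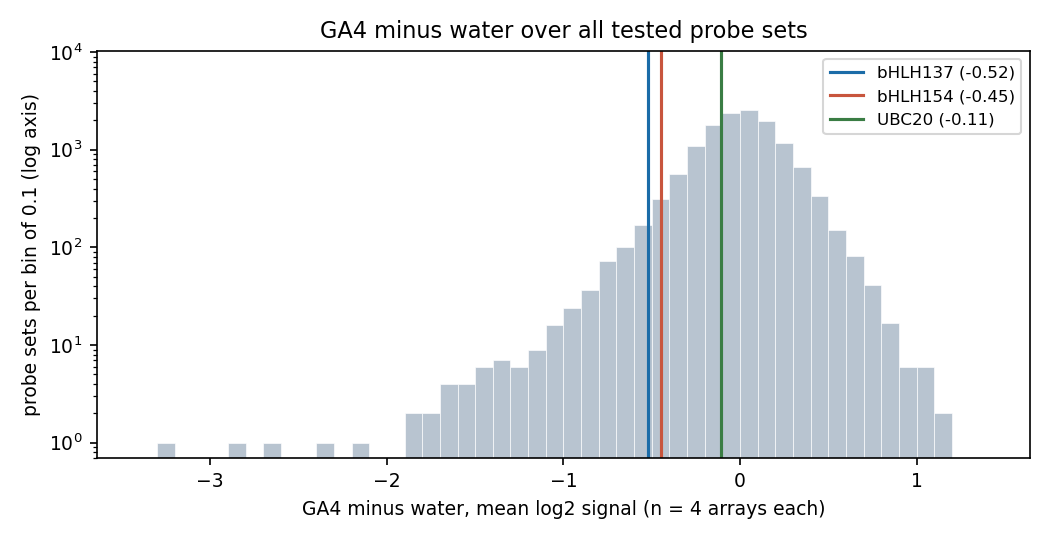
Number of tested probe sets (log axis) by GA4 minus water difference in mean log2 signal, in bins of 0.1, with coloured lines at the 3 genes. bHLH137 at -0.52 and bHLH154 at -0.45 lie on the lower flank, where 2.95% and 4.31% of probe sets are as low or lower, and UBC20 at -0.11 lies near the peak.

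Whether the 3 genes differed from each other in their response was asked from the ratio of their signals within each array, in 3 pairs. bHLH154 minus UBC20 was -0.34 in response (lower at 4 of 4 numbers, from -0.73 to -0.03, exact permutation p = 0.114, adjusted p = 0.343 over the 3 pairs). bHLH137 minus UBC20 was -0.41 (lower at 4 of 4 numbers, from -0.91 to -0.13, exact permutation p = 0.543, adjusted p = 0.814). bHLH137 minus bHLH154 was -0.07, with bHLH137 the lower at 2 of 4 numbers and a range of -0.77 to 0.43 (exact permutation p = 0.971, adjusted p = 0.971). No pair passed this test, which does not pair arrays by number, so its spread includes the offset between the replicate sets. For bHLH137 minus UBC20 the log2 ratio had an SD of 1.01 in GA4 and 0.76 in water. The test therefore cannot decide whether the responses differed within replicate numbers. The sign of bHLH137 minus bHLH154 turned in 4 of 8 omissions of 1 array, each of which leaves the sets unbalanced. The values were 0.01 and 0.33 without GA4 replicates 1 and 2, and 0.06 and 0.04 without water replicates 3 and 4. That of bHLH137 against UBC20 turned without GA4 replicate 2 (0.06), an omission that leaves the sets unbalanced, while at each of the 4 numbers it was below 0. The offsets between the sets ran in opposite directions in bHLH137 and UBC20. The first set minus the second was -1.13 in GA4 and -0.88 in water for bHLH137, against 0.34 and 0.36 for UBC20. Over the 8 arrays the log2 signals of bHLH137 and UBC20 correlated at -0.736, those of bHLH154 and UBC20 at 0.317 and those of bHLH137 and bHLH154 at 0.181. After centring each replicate set these values were -0.261, 0.302 and 0.549, which describe 8 arrays that share treatments and sets.

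Other bHLH genes had values on both sides of 0. The gene table names 22 further genes as bHLH, of which 7 had a named probe set. The filter kept 5 of these, and 0 of the 5 passed in either fit, where 0.0147% (unpaired) and 0.256% (blocked) of all probe sets were called lower. bHLH121 was at -0.56 (unpaired SE 0.30) and below 0 at 4 of 4 numbers, while bHLH34 was at 0.43 (SE 0.24) and bHLH115 at 0.40 (SE 0.41). ILR3 was at 0.16 (SE 0.19) and bHLH104 at 0.01 (SE 0.22). These 5 are known for the control of iron uptake, so they cover one branch of the family. Their median was 0.16, against 0.01 over all tested probe sets. None of the 15 bHLH factors tied to growth and light, such as PIF3, PIF4 and the PRE and BEE genes, had a probe set named here.

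Among the 11 tested ubiquitin-conjugating enzymes UBC20 had the lowest value (-0.11, unpaired SE 0.19), by a margin smaller than the SE. UBC22 and UBC27 were both at -0.06 (SE 0.14 and 0.17), so the rank is not resolved. The tested enzymes are 11 of 13 with a named probe set out of 37 listed, and UBC31, at -0.63, lay below the signal filter. The 10 other tested enzymes of this kind had values of -0.06 to 0.26 and a median of 0.14, against 0.01 over all tested probe sets. Of these, 0 of 10 passed in either fit, 2 were below 0 (48.5% of all tested probe sets) and 0 were lower in GA4 at all 4 numbers (10% of all). With 0.0147% of all probe sets called lower in the unpaired fit and 0.256% in the blocked fit, no call among 10 says nothing particular about the family. UBC19, the closest relative of UBC20 and read by its own probe set, was at 0.04 (unpaired SE 0.19), with -0.14, 0.32, -0.26 and 0.26 at numbers 1 to 4 and a sign that turned in 4 alternatives. UBC27 was at -0.06 (SE 0.17), also with a turning sign, and PEX4, which works in peroxisomes, was at 0.26 (SE 0.19). HBT, a subunit of the anaphase-promoting complex, was at 0.08 (SE 0.25) with a sign that turned in 4 alternatives, and it and UBC19 were the only 2 of 17 listed cell division genes that were tested.

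**Figure D3:**
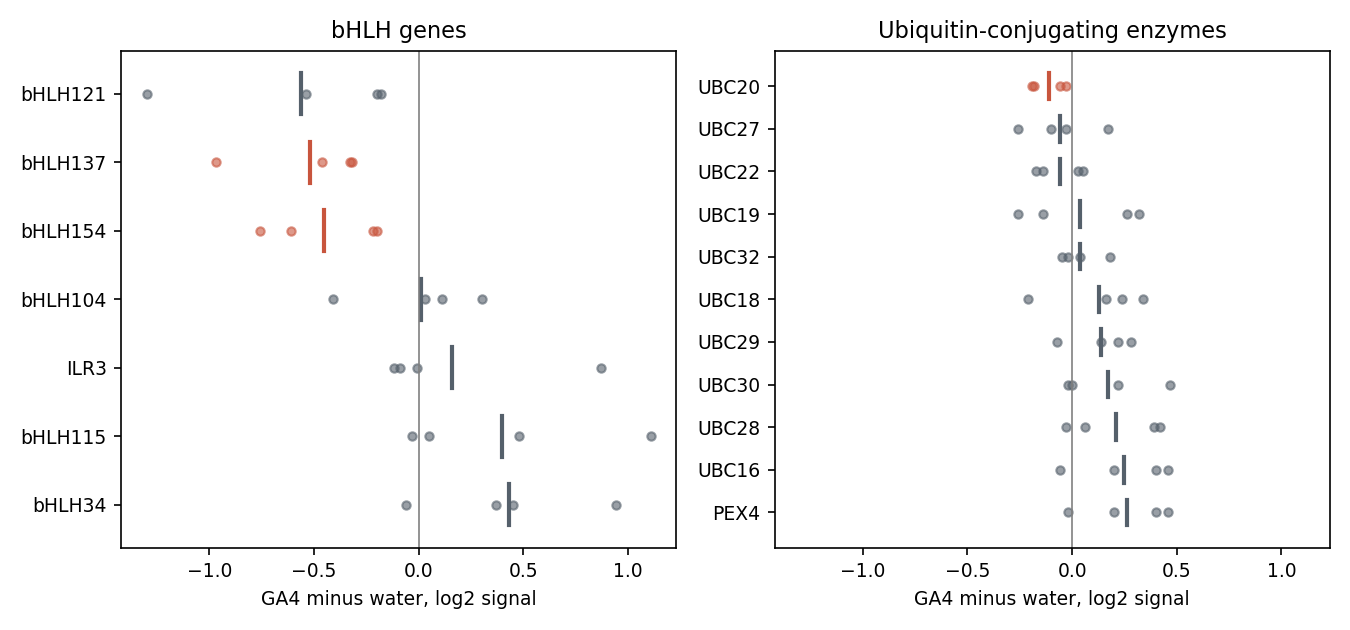
GA4 minus water on the log2 scale (horizontal axis) for the tested genes named as bHLH (left) and as ubiquitin-conjugating enzymes (right). Points are the 4 replicate numbers, bars the mean of 4, and red marks bHLH137, bHLH154 and UBC20. The 5 other bHLH genes run from -0.56 to 0.43, and the 10 other ubiquitin-conjugating enzymes from -0.06 to 0.26.

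The 3 genes had mean differences nearer to 0 than the other listed DELLA targets with a named probe set, a contrast that was not tested. At number 2, however, bHLH137 (-0.97) was further from 0 than GID1B (-0.94) and IQD22 (-0.25). Of the 14 listed loci 7 had a named probe set, and all 7 were tested. All 7 were below 0 at 4 of 4 numbers. The way the list was made does not allow that count to be read as evidence. The gibberellin receptor genes GID1A and GID1B were at -1.61 (block SE 0.20) and -1.44 (block SE 0.24), and XERICO, a RING finger gene that raises abscisic acid levels, was at -1.58 (block SE 0.16). GID1A and GID1B had geometric mean GA4 signals of 126 and 125 units, with single arrays down to 113 and 104 units, close to the filter level of 110 units, which leaves the sizes of their differences uncertain. All 3 passed with the replicate block (limma adjusted p = 0.00929, 0.0419 and 0.00236) and with the replicate set as the block (0.00648, 0.0245 and 0.00648), but not in the unpaired fit (0.0856, 1.00 and 0.121). With the block, XERICO also passed without any 1 replicate number, GID1A did not without number 1 or 2 (adjusted p = 0.0638 and 0.103), and GID1B did not without any 1 number (adjusted p = 0.0674, 0.135, 0.0792 and 0.105 without numbers 1 to 4). IQD22, a calmodulin-binding protein of the IQ67 domain family, was at -1.45 (block SE 0.34, limma adjusted p = 0.139). Its GA4 signals went down to 30.8 units, below the filter level of 110 units, which leaves that size uncertain. Every GA4 array lay below every water array for 5 of the 7 (1.39% of all tested probe sets), including bHLH154 but neither bHLH137 nor UBC20.

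The order across replicate numbers was not shared either. bHLH154, GID1B, XERICO and IQD22 each had their largest differences at numbers 3 and 4. bHLH137 had its largest at number 2, where IQD22 had its smallest (-0.25). GID1A had its largest difference at number 3 (-2.02) and its smallest at number 4 (-0.96). UBC20 also had its smallest at number 4 (-0.03). In the receptor and DELLA degradation list, SLY1, the F-box protein that recognises DELLA proteins, was at -0.65 (unpaired SE 0.22, adjusted p = 1.00), and SNE, its relative, was at -0.20 (SE 0.40) with a sign that turned in 3 alternatives. With the replicate block the SE was 0.18 for SLY1 and 0.31 for SNE (limma adjusted p = 0.212 and 0.828). SLY1 was below 0 at 4 of 4 numbers and SNE at 3 of 4. GID1C lay below the signal filter, with mean log2 signals of 6.59 ± 0.10 in GA4 and 6.54 ± 0.38 in water (SD, n = 4). None of the 5 DELLA genes had a probe set named here.

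**Figure D4:**
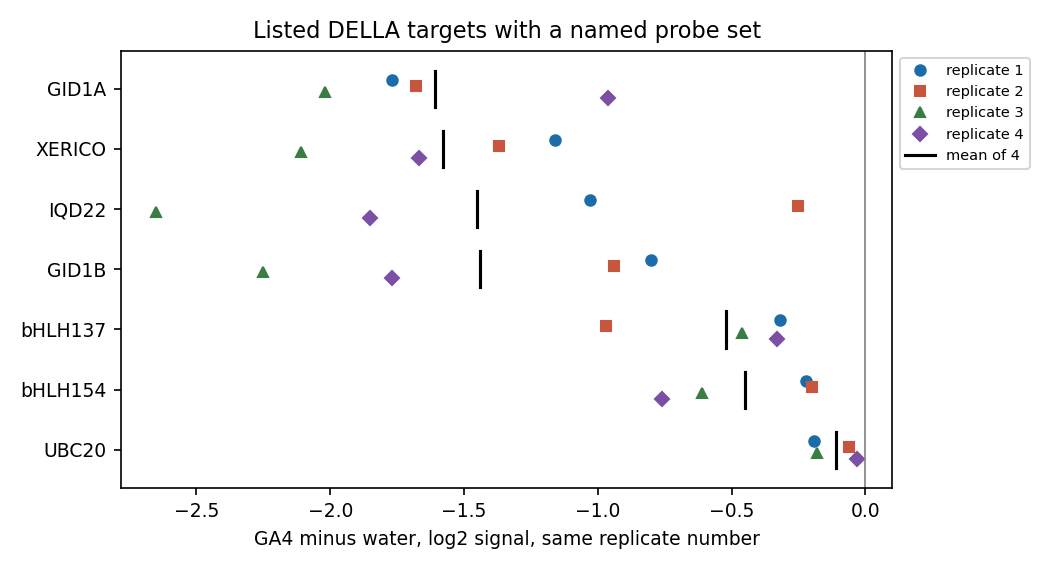
GA4 minus water on the log2 scale (horizontal axis) at each replicate number for the 7 listed DELLA targets with a named probe set, ordered by their mean (black bars). Every point lies below 0, with means of -1.61 to -1.44 for GID1A, XERICO, IQD22 and GID1B and of -0.52, -0.45 and -0.11 for bHLH137, bHLH154 and UBC20.

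The genes with the most similar pattern were sought among the 7336 other tested probe sets with 1 gene, by Pearson correlation of log2 signals over the 8 arrays. For bHLH137 they were AT2G24550 (0.989), AT2G36220 (0.988) and the calmodulin-like gene CML38 (0.982), with GA4 minus water of -0.37, -1.26 and -0.68. For bHLH154 they were IQD24 (0.967), AT1G70810 (0.935) and AT5G41400 (0.925), at -0.52, -0.18 and -0.48. For UBC20 they were AT3G55410 (0.997), AT4G03020 (0.988) and AT3G18280 (0.984), at -0.14, -0.12 and -0.25. After centring each replicate set the correlations were 0.949 to 0.973 for bHLH137, 0.924 to 0.971 for bHLH154 and 0.980 to 0.992 for UBC20. These values describe 8 arrays and were picked as the highest among all candidates.

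**Figure D5:**
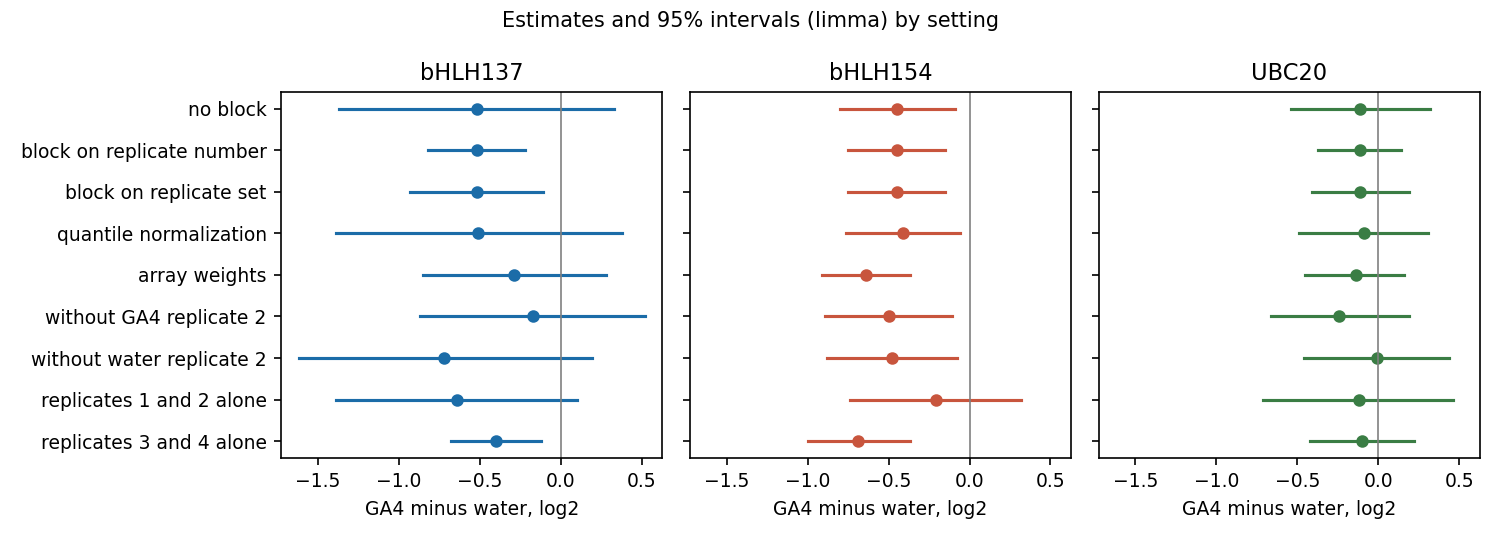
GA4 minus water on the log2 scale (points) with 95% limma intervals (lines) for the 3 genes under 9 ways of fitting or choosing the arrays. All points are below 0, and bHLH137 moves most, to -0.17 without GA4 replicate 2 and -0.29 with array weights. The blocks cannot move a point, and points of a single set had to be below 0, since every replicate number was.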

How the data were processed

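The authors deposited a MAS5 signal intensity, linear in scale, for every probe set on each array. MAS5 is named in the submitters' processing notes and its version is not given in the sources used here. Columns had nearly equal 2%-trimmed means (500.04 to 500.05), so they were not rescaled. Log2 was taken after raising the 707 values below 1 to 1. Testing covered the brightest 60% of the 22746 non-control probe sets by mean log2 signal (110 units or more), without the 64 controls. No detection calls were used. Precision is limited by having 4 arrays in each group.

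Genes were named from the supplied platform annotation and the TAIR10.1 gene table. A single gene was given for 13513 probe sets, several for 503 and none for 8730. Where a gene had several probe sets, the brightest was used. No genome build is given in the sources used here, so no positions are printed, and no sequences were used.

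GA4 was compared with water in limma 3.58.1 (R 4.3.3), using lmFit, then eBayes with trend, 2-sided, with Benjamini-Hochberg adjustment over 13648 probe sets and a threshold of 0.05. The planned fit was unpaired, and a second fit took the replicate number as a block. As a check of pairing, deviations from the group mean correlated at 0.616 to 0.685 between arrays of equal number, above the minimum of 0.1. Different numbers of one replicate set also correlated (0.367 to 0.599), so number and set cannot be told apart fully. Exact permutation tests (scipy 1.17.1) ran over 70 assignments. The code was tested on simulated data. In limma the spread used for each probe set is drawn partly from the other tested probe sets. If replicates were not separate cultures, the p-values measure only the spread between these arrays.

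The members, lists, replicate sets and naming rule were chosen with earlier results of these data known. The rule took the 3 members, the measured genes of the DELLA target list and of the DELLA and GID1 list, the extremes of the other lists, UBC19 and the 3 most correlated genes per member. Further bHLH genes were named after their values were seen. The DELLA target list was written from memory of the study's paper, which was not at hand. It could not be checked against the paper, and no comparison with the paper's values was made.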

Additional observations from a re-analysis of the deposited data

Results flagged for a closer look

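Among 30 groups of 4 arrays (15 named genes in GA4 and in water), 1 held an array far from the others. bHLH121 had a log2 signal of 8.48 on water replicate 2, high against the other 3 water arrays. Chance gives about 1 such case in 20 groups. None of bHLH137, bHLH154 and UBC20 had such an array.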

How the results depend on the processing

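bHLH137, bHLH154 and UBC20 kept a value below 0 and missed the threshold in 23 of 23 alternatives each, with ranges of -0.73 to -0.17, -0.69 to -0.21 and -0.24 to -0.01 and lowest adjusted p of 0.175, 0.138 and 0.731. For many of these alternatives the sign was fixed in advance. The filter, trend and block settings return the same mean difference. Since every replicate number was below 0, blocked fits without a number and fits of 1 set had to be below 0 too. The count therefore does not measure how stable the sign is. Array weights moved bHLH137 to -0.29 and bHLH154 to -0.64. The replicate block changed no call of the 3 genes, nor did it in the test of a difference between replicate sets, added after seeing the data (bHLH154 -0.48, adjusted p = 0.355). Leaving out an array kept bHLH154 at -0.51 to -0.38, but its exact permutation p was then 0.0571, the smallest that 4 against 3 can give, so this says nothing about stability. Over the same omissions bHLH137 minus bHLH154 in response ran from -0.35 to 0.33 and bHLH137 minus UBC20 from -0.71 to 0.06. The difference in UBC20 effect between the replicate sets was -0.01 after quantile normalization.

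The count of probe sets past the threshold, 2 in the unpaired fit, was 1 without a filter, 1 with the top 40%, 1 without any 1 array, 8 with array weights, 32 with the set block, 40 with the replicate block and 20 with the replicate block and quantile normalization. With the replicate block it was 14, 8, 53 and 43 without replicates 1 to 4. On replicates 1 and 2 alone it was 1, and on replicates 3 and 4 alone 9. In 3 of 23 alternatives it stayed within 1.5 times. Signs turned for 4 named genes with values near 0. SNE was at -0.46 to 0.18 without single arrays, 0.12 with the replicate block without replicate 3 and 0.24 on replicates 1 and 2. UBC19 was at -0.10 to 0.14 without single arrays and, with the block, at -0.05 and -0.03 without replicates 2 and 4. HBT was at -0.09 to 0.24 without single arrays, -0.04 with array weights and -0.10 with the block without replicate 1. UBC27 was at -0.12 to 0.04 without single arrays and 0.01 with the block without replicate 4. The cause was not tested. No background level was measured, so how far signals near or below the filter level of 110 units stand above background is not known. Of these 4 genes only SNE had arrays below that level, down to 51.9 units.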
